A study of Mus musculus with 3 samples.

Results

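Genomic imprinting leaves a gene active from a single parental allele, and many imprinted genes set how fast the fetus and its organs grow. The 10 imprinted genes described here were chosen by name, as deposited rows with the Ensembl identifiers of H19, Igf2, Igf2r, Cdkn1c, Dlk1, Meg3, Peg3, Plagl1, Grb10 and Gnas. All 10 were found among the 24318 rows with an identifier. The measurement was H3K36me3, a histone mark placed over the bodies of transcribed genes as RNA polymerase elongates. It was profiled by CUT&Tag, in which an antibody guides a transposase to cut beside the mark. At some imprinted loci, but not all, the mark has a further role as background knowledge: transcription through a control region in the oocyte lays down H3K36me3, which helps to draw DNA methylation to that region. The cells were EpCAM-labelled epithelial cells sorted from the fetal pancreas of wild-type (WT) C57BL/6 mouse embryos, with 1 library for each of 3 stages: E11.5, E13.5 and then E15.5, called stage order here. No label gives the number of embryos behind a library. Because the strain is inbred and each file holds a single value per gene and window, signal on the maternal and on the paternal allele cannot be told apart. In sorted bulk cells, more mark per cell and more cells that carry the mark cannot be told apart either.

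Body signal was at least 2-fold higher at E15.5 than at E11.5 over 5 of the 9 loci above a floor on low values, against 26.5% of all genes tested. Quantile normalization left 3 of them, since Grb10 (0.96) and Gnas (0.73) then lay below 2-fold, which is 1 on the log2 scale. Meg3, a maternally expressed noncoding RNA, had a body signal 20.5 times that of E11.5 at E15.5 and reached percentile 99.6 of all genes. Peg3, a paternally expressed zinc-finger gene, had 8.23 times its E11.5 body signal. Gnas and Grb10, both coupled to hormone receptor signalling, had 2.59 and 2.54 times. H19, a noncoding RNA with a short body, had 10.2 times, against an E11.5 value of 32 increments, the smallest unit of signal in a library. The bodies of Igf2r, Dlk1 and Plagl1 differed by less than 2-fold in every pair of stages. From E11.5 to E13.5 the body signal of the neighbours H19 and Igf2 differed in opposite directions. In the other deposited columns, described below, both genes were higher at E13.5. With 1 library per stage there is no replicate spread and no test, so each difference below is a size in these libraries.

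The values are the authors' signal per window, in 3 columns headed PR, GB and SE. In each library the PR and SE sums were whole multiples of a single increment, 0.162, 0.167 and 0.163 in stage order, so sums are also given here as numbers of increments. In a coverage track a fragment adds to each position it spans, so increments are not read counts. The labels give a mean of 20 M reads per sample for the study, without a value per library. The number of fragments behind a value is unknown, and no counting interval is given. GB lengths are not stated, and were recovered as those at which the GB sums come out whole as well, for all 10 genes and for 19709 of all rows with an identifier. For H19 (2617 positions), Igf2 (16049), Igf2r (87301), Meg3 (30734) and Plagl1 (40863) it equalled the length of the whole gene in RefSeq's GRCm38.p6 annotation. For Gnas (62423) it was 2 positions shorter than in RefSeq, for Grb10 (106922) 8, for Cdkn1c (2712) 9, for Dlk1 (10514) 338 and for Peg3 (24460) 2111. GB is therefore read as signal over the whole gene.

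PR covers 6000 positions and SE 12000. The sums were compared among genes with a recovered length. For bodies of 1501 to 3000 positions, the GB sum was no larger than the PR sum in 97.8%, 98.1% and 98.4% in stage order. For bodies of 3001 to 6000 positions those shares were 64.3, 65.2 and 71.1%, while the GB sum was no larger than the SE sum in 99.1, 99.3 and 99.2%. PR is thus read as a window that takes in the first or the last 3000 positions of the gene, and SE as a wider window around it. The files do not state which end of the gene it is. H19 and Cdkn1c are short enough to lie inside PR, so their GB and PR values share positions.

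In GRCm38.p6, H19 lies at chr7:142575530-142578146 and Igf2 at chr7:142650768-142666816, with 72.6 kb between them. Cdkn1c follows on the same chromosome at chr7:143458339-143461059, 792 kb beyond Igf2, and Peg3 stands far apart at chr7:6703892-6730462. Dlk1 at chr12:109452485-109463336 and Meg3 at chr12:109540996-109571729 are 77.7 kb apart. Igf2r lies at chr17:12682406-12769706, Plagl1 at chr10:13090832-13131694, Grb10 at chr11:11930499-12037428 and Gnas at chr2:174284320-174346744. The mark has no strand, so a body value includes whatever other genes share those positions. Rtl1 shares 22.2% of the Meg3 body, Airn, the noncoding RNA that silences the paternal Igf2r allele, 32.5% of Igf2r, and Igf2os 44.5% of Igf2. The antisense RNA Gnasas1 shares 17.8% of Gnas, and Hymai shares 12.4% of Plagl1.

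Start-site sequence is shown for the 4 genes whose PR value at E15.5 was furthest above that at E11.5 on the log2 scale. For each gene the first start listed is shown, although Meg3 and Grb10 each have 2 in the table. Each window runs from 250 bases before to 50 bases after a start in RefSeq's GRCm38.p6 table, 5′ to 3′ on the gene's strand. Capitals mark TGCCGC or its reverse complement GCGGCA, the core bound by ZFP57, a zinc-finger protein that protects methylated imprinting control regions.
Meg3 (chr12:109540746-109541045, plus strand): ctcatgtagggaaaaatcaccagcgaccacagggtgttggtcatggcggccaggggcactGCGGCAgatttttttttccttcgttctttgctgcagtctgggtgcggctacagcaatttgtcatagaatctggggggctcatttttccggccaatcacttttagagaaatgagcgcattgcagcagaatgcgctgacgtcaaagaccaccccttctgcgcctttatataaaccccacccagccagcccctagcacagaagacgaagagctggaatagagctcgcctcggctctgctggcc
Peg3 (chr7:6730370-6730669, minus strand): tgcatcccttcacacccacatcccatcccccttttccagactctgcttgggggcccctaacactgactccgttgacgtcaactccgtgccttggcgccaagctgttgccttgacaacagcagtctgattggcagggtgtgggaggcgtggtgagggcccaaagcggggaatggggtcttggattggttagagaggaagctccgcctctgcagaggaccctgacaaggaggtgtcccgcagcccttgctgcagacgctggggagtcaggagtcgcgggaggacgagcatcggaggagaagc
Grb10 (chr11:12037371-12037670, minus strand): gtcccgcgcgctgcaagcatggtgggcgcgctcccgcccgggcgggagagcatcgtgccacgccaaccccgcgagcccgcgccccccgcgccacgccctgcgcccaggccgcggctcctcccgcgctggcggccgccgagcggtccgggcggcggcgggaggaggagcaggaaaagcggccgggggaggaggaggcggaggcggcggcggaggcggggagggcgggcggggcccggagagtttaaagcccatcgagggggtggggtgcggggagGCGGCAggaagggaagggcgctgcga
Plagl1 (chr10:13090582-13090881, plus strand): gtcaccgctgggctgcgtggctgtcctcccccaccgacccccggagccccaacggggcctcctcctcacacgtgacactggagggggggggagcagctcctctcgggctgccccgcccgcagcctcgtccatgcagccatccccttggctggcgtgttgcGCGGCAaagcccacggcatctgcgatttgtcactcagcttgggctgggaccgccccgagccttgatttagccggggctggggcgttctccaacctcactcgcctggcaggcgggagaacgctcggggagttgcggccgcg
The core occurred on either strand in the windows shown for Meg3, Grb10 and Plagl1 and not in that of Peg3. Over all 16 RefSeq windows of the 8 members with an entry it occurred in 4, the other being a window of Igf2, and over all 32851 windows of the table in 11.6%. CpG dinucleotides numbered 13 in the Meg3 window shown, 13 in Peg3, 26 in Plagl1 and 45 in Grb10, against a median of 7 per window over the table. The Grb10 window shown was at percentile 98.2 by that count. The other start windows of Meg3 and Grb10 had 1 and 9 CpG dinucleotides, at percentiles 9.78 and 55.4, and 0 cores. A match of these letters is a description of the sequence and not a binding site, and whether these windows lie inside PR was not determined.

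Both noncoding RNAs also carry microRNAs, cut from the transcript whose body the GB value covers. The mature forms in the bodies of H19 and Meg3 are shown from RefSeq, 5′ to 3′, with the seed (bases 2 to 8) in capitals, because the GB window of the host takes them in.
miR-675-5p (H19, chr7:142577112-142577133): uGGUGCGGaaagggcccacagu
miR-675-3p (H19, chr7:142577078-142577099): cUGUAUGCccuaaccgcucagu
miR-770-5p (Meg3, chr12:109563710-109563731): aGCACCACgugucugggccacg
miR-770-3p (Meg3, chr12:109563744-109563765): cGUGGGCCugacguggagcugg
miR-1906 (Meg3, chr12:109544588-109544609): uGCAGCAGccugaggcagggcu
No seed is shared among these 5.

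**Figure D1:**
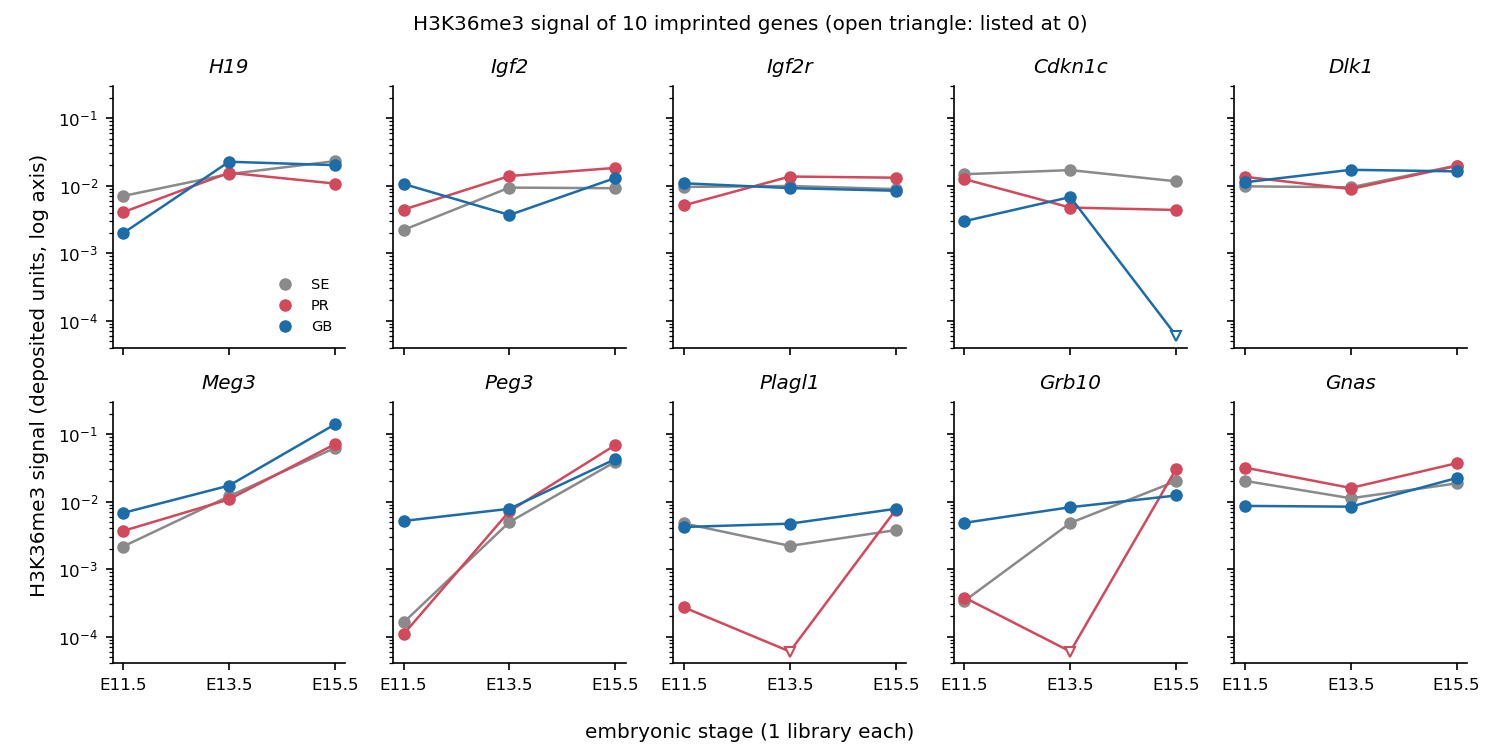
Signal of each imprinted gene (vertical axis, deposited units, log axis) at the 3 stages (horizontal axis, 1 library each) in the columns GB (blue), PR (red) and SE (grey). Open triangles mark values listed at 0. Meg3, Peg3 and Grb10 have their highest value in every column at E15.5, while Igf2r stays between 0.00842 and 0.0109 in GB.

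The Dlk1 to Meg3 cluster held the largest GB difference among the members, whereas in PR and SE Peg3 had the largest E15.5 over E11.5 ratio. Those Peg3 ratios rest on E11.5 values of only 4 increments in PR and 12 in SE. Dlk1 (ENSMUSG00000040856), a paternally expressed membrane protein with EGF-like repeats, had GB values of 0.0112, 0.0172 and 0.0163 in stage order. Its body was thus above the median gene at each stage, at percentiles 87.4, 95.9 and 86.7. Meg3 (ENSMUSG00000021268), its maternally expressed neighbour, had GB values of 0.00678, 0.0172 and 0.139 in the same order. In increments over its 30734 positions this was 1288, 3162 and 26207, which at E15.5 is 0.853 increments per position. Meg3 moved from percentile 69.6 to 95.9 and then 99.6 and ranked 88 of 24318 genes at E15.5.

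Part of that difference could lie in the PR window alone, so a lower bound was taken for the rest of the Meg3 body. Subtracting the whole PR sum at E15.5 and nothing at E11.5 left a ratio of at least 18.4 in the values as deposited. PR was also higher, at 0.00367, 0.0108 and 0.0708, and SE at 0.00216, 0.0120 and 0.0622. PR divided by GB in Meg3 was 0.541, 0.625 and 0.510, so both columns differed between stages by similar factors. Among genes with a body between 0.5 and 2 times as long as that of Meg3, called genes of similar length here, its E15.5 GB value was the highest, rank 1 of 7340. Its log2 ratio of E15.5 over E11.5, 4.17, was also the highest, rank 1 of 5778. Such sets hold only genes with a recovered length, which needs GB above 0 in at least 2 libraries. Genes with body signal at E15.5 only are thus left out of them. Over all genes tested, the Meg3 ratio was at percentile 96.9. After quantile normalization that ratio was 3.47. Here and below, ratios on the log2 scale are log2((later + 0.001) / (earlier + 0.001)), which understates differences at low values.

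Dlk1 differed less, with log2 GB ratios of 0.57 for E13.5 over E11.5, -0.07 for E15.5 over E13.5 and 0.50 for E15.5 over E11.5. Its PR values were 0.0135, 0.00893 and 0.0196, and SE was 0.00979, 0.00946 and 0.0199. At E15.5, GB was 8.52 times higher in Meg3 than in Dlk1, at E13.5 the genes stood at the same value to 3 digits, and at E11.5 Dlk1 was the higher. These are mean values per position, but GB levels also differed with body length, which is shorter in Dlk1. At E15.5 percentile 90 of GB was 0.0266 for bodies of 6000 to 12000 positions and 0.0130 for 25000 to 50000.

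Peg3 (ENSMUSG00000002265) encodes a zinc-finger protein expressed from the paternal allele, with roles in growth and nurturing behaviour. GB was 0.00516, 0.00782 and 0.0425 in stage order, or 780, 1142 and 6376 increments. Peg3 thus went from percentile 57.6 to 78.0 and then 96.9. PR went from the bottom of the library to near its top. It was 0.000108, 0.0072 and 0.0687, at percentiles 11.2, 73.3 and 98.9. The E11.5 value is 4 increments over 6000 positions, so no fold is given against it. SE was 0.000162, 0.00497 and 0.0389, of which the part outside PR was 0.000215, 0.00273 and 0.009015. Outside the PR window, the Peg3 body had at least 4.96 times its E11.5 signal at E15.5 in the values as deposited. Its log2 GB ratio for that pair, 2.82, ranked 47 of 6122 genes of similar length and was at percentile 92.8 of all genes tested. After quantile normalization that ratio was 2.25.

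Grb10 (ENSMUSG00000020176) is an adaptor that binds the insulin and IGF receptors and restrains their signalling. It is expressed from the maternal allele in most tissues and from the paternal allele in neurons. Its GB was 0.00484, 0.00824 and 0.0123 in stage order, from 3200, 5264 and 8072 increments over the longest body of the group. The steps between stages were each below 2-fold, and E15.5 over E11.5 was 2.54-fold. In genes of similar length, 6.65% were at least 2-fold higher in that comparison, and Grb10 ranked 91 of 2420. Over all genes tested, its log2 GB ratio for that pair was at percentile 77.0. PR was nearly empty at the earlier stages. It was 0.000378 at E11.5, 14 increments, was listed at 0 at E13.5 and was 0.0306 at E15.5, 1126 increments. SE was 0.000338, 0.00483 and 0.0201, and its part outside PR was already 0.009655 at E13.5, against 0.00956 at E15.5. Without the PR window, the body at E15.5 still had at least 2.18 times its E11.5 signal in the values as deposited. The log2 ratio of the whole body was below 2-fold after quantile normalization, at 0.96, and with a pseudocount of 0.005, at 0.81.

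Gnas (ENSMUSG00000027523) encodes the stimulatory G protein alpha subunit that couples hormone receptors to cyclic AMP, and its locus also makes transcripts with opposite parental expression. GB was 0.00863, 0.00840 and 0.0223 in stage order, so the first pair of stages stood level and the last was apart. The log2 GB ratio was -0.03 for E13.5 over E11.5, 1.31 for E15.5 over E13.5 and 1.28 for E15.5 over E11.5. Both of the latter were below 2-fold after quantile normalization, at 0.68 and 0.73. In the values as deposited, E15.5 over E11.5 for the body outside PR was at least 2.17-fold. PR followed another order, at 0.0318, 0.0159 and 0.0370. At E11.5 the Gnas PR value ranked 49 of 24318 genes and 2 of 5282 genes of similar length. Its percentile was 99.8, 95.7 and 92.5 in stage order, although its E15.5 value was the highest of the 3. The part of SE outside PR was 0.00869, 0.006475 and 0.000162, so at E15.5 almost all of the SE sum lay within PR.

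**Figure D2:**
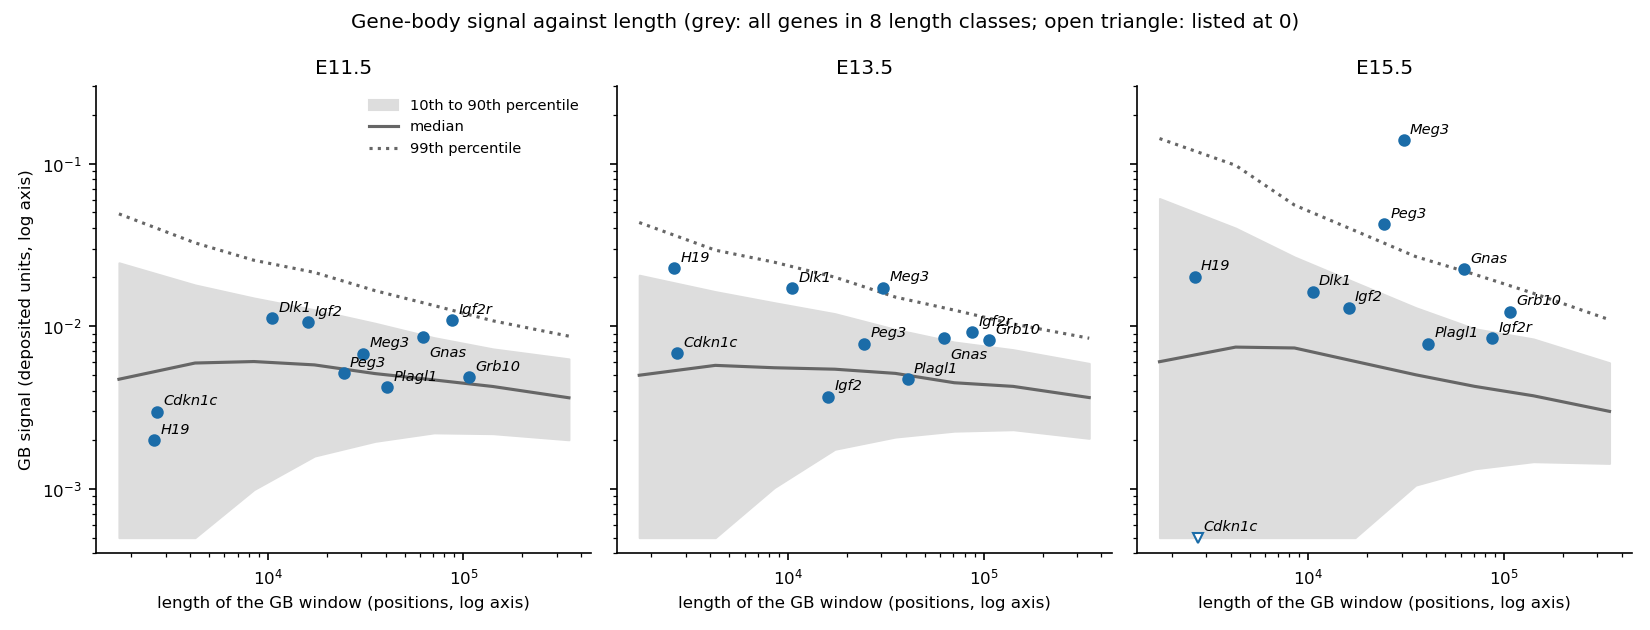
GB signal (vertical axis, deposited units, log axis) against the length of the GB window (horizontal axis, positions, log axis) in the 3 libraries. Blue points are the imprinted genes. Grey shows the median, percentiles 10 to 90 and percentile 99 (dotted) of genes with a recovered length of at least 1000 positions, in 8 length classes. Lower bounds under 0.0005 are drawn at 0.0005. At E15.5 Meg3 (0.139), Peg3 (0.0425) and Gnas (0.0223) stand above the dotted line, and Cdkn1c, listed at 0, is drawn at the lower edge.

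H19 and Igf2 share an enhancer and an imprinting control region that directs it to H19 on the maternal and to Igf2 on the paternal chromosome. H19 (ENSMUSG00000000031) is a noncoding RNA that restrains growth. Its GB was 0.00198, 0.0226 and 0.0202 in stage order. Its body has only 2617 positions, and these values are 32, 354 and 324 increments. An E13.5 over E11.5 ratio of 11.4 thus rests on very little coverage at E11.5. Among genes of similar length, 32.3% were at least 2-fold higher and 35.0% at least 2-fold lower in that step. PR of H19, which contains the body, was 0.00405, 0.0156 and 0.0108, and SE was 0.00704, 0.0149 and 0.0231. E11.5 was the lowest library for H19 in all 3 columns.

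Igf2 (ENSMUSG00000048583), the fetal growth factor, had GB values of 0.0106, 0.00368 and 0.0130, or 1053, 353 and 1282 increments. E13.5 was thus its lowest library in GB, at percentile 43.9, against 85.9 and 82.7 at E11.5 and E15.5. The log2 GB ratio was -1.31 for E13.5 over E11.5 and 1.58 for E15.5 over E13.5, and both steps rest on the same E13.5 library. PR had a different order, at 0.004425, 0.0139 and 0.0184. SE was 0.00221, 0.00938 and 0.00918. Its part outside PR, taken as the SE sum minus the PR sum, was 0 at E11.5 and at E15.5. At E11.5 Igf2 was thus above H19 in GB, at E13.5 H19 was above Igf2, and at E15.5 H19 was above Igf2, by 1.55-fold. Their bodies differ in length, and over genes with a recovered length GB levels differed with length. In PR both genes were higher at E13.5 than at E11.5, with log2 ratios of 1.72 for H19 and 1.46 for Igf2. Both were also higher in SE.

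Igf2r (ENSMUSG00000023830), which carries IGF2 to the lysosome for breakdown and is expressed from the maternal allele, was the most level of the group. GB was 0.0109, 0.00922 and 0.00842, from 5860, 4810 and 4512 increments. Its log2 GB ratio lay between -0.33 and -0.12 in the 3 pairs. For a gene of its length this level was high, at percentiles 96.7, 94.9 and 85.2 of 4246 genes of similar length. PR was 0.00513, 0.0137 and 0.0131, so E11.5 stood apart in that column and not in GB. SE was 0.00959, 0.00991 and 0.00891.

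Cdkn1c (ENSMUSG00000037664) encodes p57, an inhibitor of cyclin-dependent kinases that makes cells leave the cell cycle, and is expressed from the maternal allele. Its GB was 0.00298, 0.00679 and 0 over 2712 positions, and these values rest on few increments in every library. PR was 0.0125, 0.00474 and 0.00437, so E11.5 was the highest. SE was 0.0148, 0.0170 and 0.0116, at percentiles 96.1, 98.5 and 71.1. Its GB sums were 50, 110 and 0 of the 1097, 1221 and 855 increments in SE, so most signal around Cdkn1c lay outside its body.

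Plagl1 (ENSMUSG00000019817), also called Zac1, is a paternally expressed zinc-finger transcription factor whose human counterpart is tied to transient neonatal diabetes. GB was 0.00420, 0.00470 and 0.00781, from 1060, 1148 and 1958 increments, and no pair of stages differed by 2-fold. PR was 0.00027 at E11.5, 10 increments, was listed at 0 at E13.5 and was 0.00755 at E15.5, 278 increments. Even so it was only at percentile 54.7 of PR at E15.5. SE was 0.00475, 0.00220 and 0.00377, and at E15.5 the whole SE sum lay within PR.

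**Figure D3:**
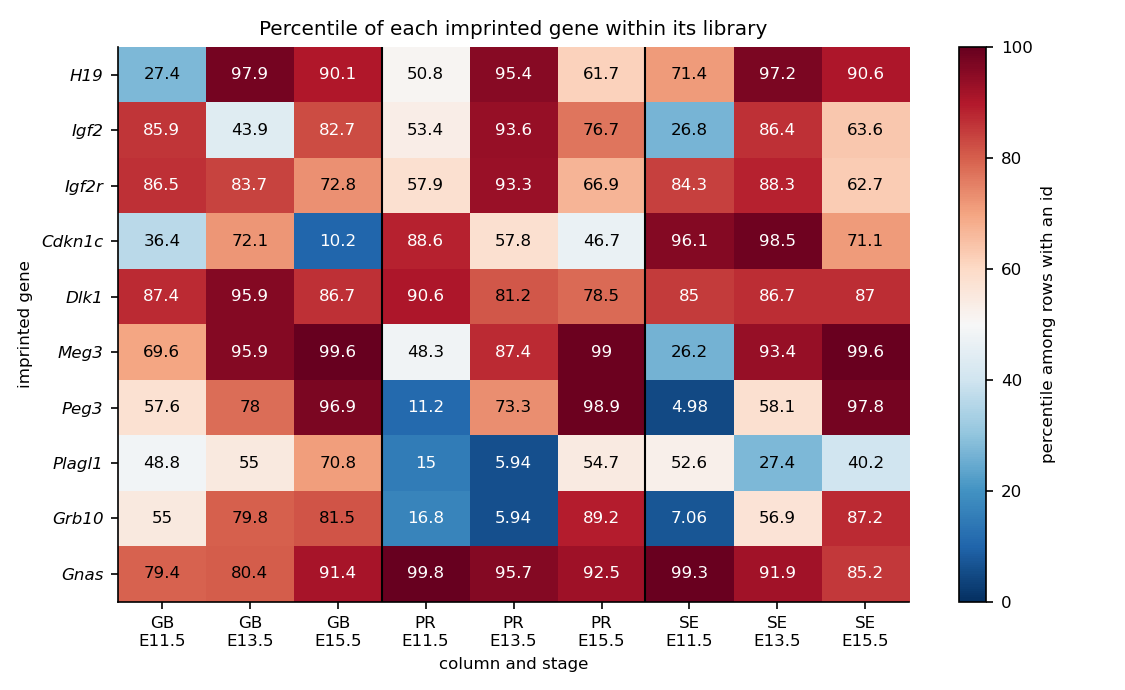
Percentile of each imprinted gene (rows) among all rows with an identifier, for GB, PR and SE at each stage (columns), with red for values above percentile 50 and blue for values below. Meg3 is at 99.6 in GB and 99.6 in SE at E15.5, and Peg3, Plagl1 and Grb10 are at 11.2 to 16.8 in PR at E11.5.

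Read as a group, the members stood above the median gene in most windows. By GB, 7 of 10 were above percentile 50, 9 and 9 in stage order, and the median member was at percentiles 63.6, 80.1 and 84.7. The median GB over members was 0.00597, 0.00832 and 0.0147, against 0.00432, 0.00421 and 0.00371 over all genes with an identifier. GB was also more spread at E15.5, with percentile 99 of all genes at 0.0801 against 0.0348 at E11.5. The share of genes with GB at 0 was 20.3% at E15.5 against 12.9% at E11.5. Among genes of similar length the median percentile was 60.9, 90.9 and 82.5. At E15.5 the exception by GB was Cdkn1c, at percentile 10.2. By PR, the median member was at percentiles 52.1, 84.3 and 77.6, and by SE at 62.0, 87.5 and 86.1. By the allele that is active in most tissues, GB at E15.5 ran from 0.00781 to 0.0425 in the paternally expressed Igf2, Dlk1, Peg3 and Plagl1. In the maternally expressed H19, Igf2r, Cdkn1c, Meg3 and Grb10 it ran from 0 to 0.139, so the ranges overlapped.

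Genes were called higher or lower in a pair of stages at 2-fold or more on the log2 scale above, provided that the higher value was no lower than the column's median over all genes in the 3 libraries, the floor (0.00413 for GB, 0.00407 for PR and 0.00460 for SE). The 3 pairs share libraries, so their counts are not separate evidence. For E13.5 against E11.5 in GB, 2 of 10 members were higher, H19 and Meg3, where 17.2% of all genes tested were, and Igf2 was lower, where 19.4% were. The median log2 ratio was 0.54 over members and -0.07 over all genes tested. In PR 5 of the 8 members above the floor were higher, H19, Igf2, Igf2r, Meg3 and Peg3, against 28.8% of all genes, and Cdkn1c was lower, against 32.8%. In SE 4 of 10 were higher, Igf2, Meg3, Peg3 and Grb10, against 19.9%, and 0 were lower, against 24.8%.

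For E15.5 against E13.5 in GB, 4 of 10 members were higher, Igf2, Meg3, Peg3 and Gnas, against 27.6% of all genes tested, and Cdkn1c was lower, against 22.1%, a call that rests on 110 increments at E13.5 and 0 at E15.5. Quantile normalization took Gnas to 0.68 on the log2 scale, leaving 3 higher, and gave 2 lower. The median log2 ratio was 0.58 over members and 0.22 over all genes. In PR 6 of 10 were higher, Dlk1, Meg3, Peg3, Plagl1, Grb10 and Gnas, and 0 were lower. Over all genes 52.2% were higher and 24.7% lower in PR, and the median log2 ratio was 1.11 over members against 1.12 over all genes, so the members' PR count is near the background. After quantile normalization Dlk1 and Gnas turned to log2 PR ratios of -0.12 and -0.26 in this pair. In SE 3 of the 9 members above the floor were higher, Meg3, Peg3 and Grb10, against 45.7%, and 0 were lower, against 17.9%.

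For E15.5 against E11.5 in GB, 5 of the 9 members above the floor were higher, H19, Meg3, Peg3, Grb10 and Gnas, against 26.5% of all genes tested, and 0 were lower, against 22.8%. The median log2 ratio was 0.97 over all 10 members, with Cdkn1c below the floor included, and 0.14 over all genes tested. Quantile normalization left 3 of these higher, with Grb10 at 0.96 and Gnas at 0.73 on the log2 scale. Background calls depend on body length: among genes of similar length, 47.8% were at least 2-fold higher for H19, 21.0% for Peg3, 17.8% for Meg3, 10.4% for Gnas and 6.65% for Grb10. In PR 7 of 10 members were higher, all but Cdkn1c, Dlk1 and Gnas, and Cdkn1c was lower, where 50.0% of all genes were higher and 26.0% lower. Quantile normalization gave 5 higher and 2 lower, and over all genes moved the share of higher among called PR values from 65.8 to 50.1%. In SE 5 of 10 were higher, H19, Igf2, Meg3, Peg3 and Grb10, against 42.7%, and 0 were lower, against 19.7%.

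**Figure D4:**
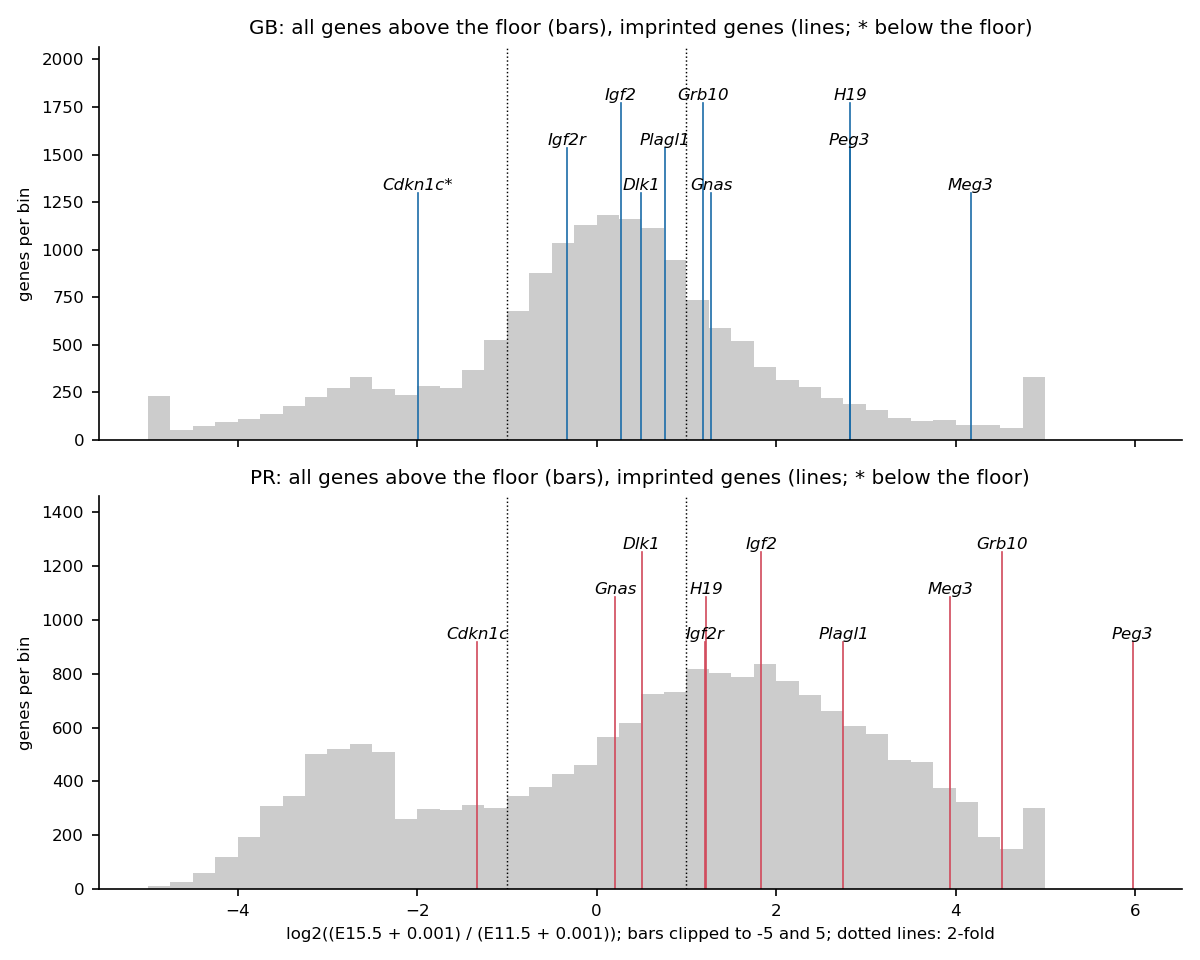
Log2 ratio of E15.5 over E11.5 with a pseudocount of 0.001 (horizontal axis) and number of genes per bin (vertical axis) for GB (top) and PR (bottom). Grey bars are all genes above the floor, clipped to -5 and 5, coloured lines are the imprinted genes, and dotted lines mark 2-fold. Meg3 (4.17), H19 (2.83) and Peg3 (2.82) lie furthest right in GB, while in PR most genes of the background are themselves right of 0.

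The signal in PR relative to the whole body also differed between stages, and a scale factor of a library cancels when PR is divided by GB. The median PR to GB quotient over members was 0.506, 0.693 and 1.41 in stage order, the last over the 9 members with GB above 0. Over all genes with GB above 0 it was 0.770, 0.740 and 1.08. In Peg3 the ratio was 0.0210, 0.921 and 1.62. Grb10 had ratios of 0.0781, 0 and 2.49. Igf2r had 0.472, 1.48 and 1.56, whereas in Gnas the order was turned, with 3.69, 1.89 and 1.66. Meg3 had PR below GB in every library, and so did Plagl1, with 0.0643, 0 and 0.967.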

How the data were processed

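The deposited signal values were produced by the authors. Per the submitters' processing notes the tools were Bowtie2 2.4.2 and the build mm10. Filters, scaling between libraries and gene models are not given in the sources used here. Per the file headers, each of the 3 files has the columns PR, GB and SE for 25493 rows, of which 1175 (4.61%) have no identifier and were left out. Values were compared as deposited. Identifiers were paired with symbols as given with the request for these 10 genes, and 0 of the deposited identifiers occur in the RefSeq table, so other imprinted genes and cell type markers were not analysed here.

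The increment of each library and the length of each GB window were recovered from the values, with sums whole at a tolerance of 0.06 increments. Percentiles use mid-ranks. Ratios used a pseudocount of 0.001 and a 2-fold threshold. The members, lists and settings were chosen with earlier results of these data known, and the window reading, the bounds outside PR and the rank of ratios by length after seeing the data. All 10 members are named, and the promoters shown are those of the 4 largest PR ratios. Alternatives were other pseudocounts, no floor, a 1.5-fold threshold, division by the median GB, quantile normalization, other sets of genes for percentiles and SE in place of PR. Stages follow the sample labels, from which the series' design text departs slightly for the middle stage. Scripts were tested on simulated data and run with Python 3.11.15, numpy 2.4.6, pandas 2.3.3 and matplotlib 3.10.9.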

Additional observations from a re-analysis of the deposited data

How the results depend on the processing

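Among rows above 0 in a library, the median percentile of the members was 58.2, 76.7 and 80.8 for GB in stage order, 48.2, 82.1 and 71.2 for PR, and 61.2 and 84.4 for SE at E11.5 and E15.5. Among genes of similar length it was 60.9, 90.9 and 82.5 for GB, 48.2, 83.8 and 74.3 for PR and 56.3, 89.0 and 83.6 for SE. Both sets hold other genes by construction, and PR at E11.5 went to the other side of 50.

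Of 72 recomputed counts of called members, 59 were within 1.5 times the main count. With a pseudocount of 0.005, which shrinks ratios by construction, E13.5 against E11.5 gave 1 higher and 0 lower in GB, and 3 higher and 0 lower in PR, and E15.5 against E11.5 gave 0 lower in PR. The pseudocount lost 10 calls, among them Meg3 at E13.5 (0.92 on the log2 scale) and Grb10 at E15.5 (0.81) in GB against E11.5. Quantile normalization gave 2 lower in both GB and PR for E15.5 against E13.5, 3 higher in GB for E15.5 against E11.5, and 2 lower in PR against E11.5 at both later stages. It lost the calls of Gnas in GB at E15.5 against both earlier stages, and it turned the log2 PR ratios of Dlk1 (-0.12) and Gnas (-0.26) between E13.5 and E15.5, and the cause was not tested. A 1.5-fold threshold gave 4 higher in GB and 2 lower in PR for E13.5 against E11.5. Without a floor 1 member, Cdkn1c, was lower in GB for E15.5 against E11.5. Dividing by the median GB changed 0 calls and moved the median log2 ratio of all genes for E15.5 against E11.5 by 0.19 in GB and 0.20 in PR. Calls of Meg3 and Peg3 in GB at E15.5 held under all 6 alternatives. With SE in place of PR, the median ratio to GB became 0.877 at E11.5 and 0.915 at E15.5, and with the part of SE outside PR 0.772 and 0.385.

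No paired analysis was possible because no stage has a second library, which also leaves no test. Depth per library is unknown, and short bodies such as H19 and Cdkn1c rest on few increments.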
